A study of Heterocephalus glaber and Mus musculus with 9 samples.

Results

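The interferon, interferon regulatory factor (IRF) and JAK-STAT genes of the spleen were followed in mouse and in naked mole-rats (NM-R, Heterocephalus glaber). They were chosen by gene symbol alone: symbols starting with Irf, Stat, Jak, Socs, Mx, Ifi or Trim and a number, symbols starting with Ifit, Ifih, Ifnar, Ifngr, Isg or Oas, and Tyk2, Ifng, Ddx58, Dhx58, Mavs and Bst2. Of the 12946 genes in the table, 71 had such a symbol. They were 1 ligand, 4 receptor chains, 4 Janus kinases, 4 STATs, 3 SOCS genes, 7 IRFs, 4 RNA sensor genes, 6 effectors, 33 TRIM genes and 5 genes that share a name with these families but not their known role.

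Spleen RNA was sequenced from 3 groups of 3 animals. The mice were male wild-type C57Bl/6N of 2 months. The small-spleen NM-R (ssNM-R) were males of 23, 26 and 30 months, and the large-spleen NM-R (lsNM-R) were animals of 23, 24 and 29 months, of which lsNM-R 4 was female and the others male. All were untreated and healthy, mice being kept cooler than NM-R, and the cohorts were split by spleen weight relative to body mass. Age, housing, genome annotation and species therefore differ together and cannot be told apart. The groups addressed how the NM-R spleen differs from that of the mouse, and how small and large NM-R spleens differ.

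Interferons are cytokines, and those of type I are released by cells on sensing viral RNA or DNA. Interferon receptors carry Janus kinases, which phosphorylate STAT proteins. Stat2 and Irf9 belong to the complex that turns on interferon-stimulated genes after type I interferon, while STAT dimers act after type II interferon. SOCS proteins dampen the receptors, and many TRIM proteins are ubiquitin ligases, of which some restrict viruses or tune RNA sensing. In the spleen the pathway also shapes lymphocytes and dendritic cells, for which Irf4 and Irf8 are lineage factors.

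Values are normalized counts, that is reads per gene divided by a size factor for each library. They are not divided by gene length, so levels were compared between spleens and not between genes. Reads of a library are given here and below as those in the listed genes, not all reads sequenced. The 3 mouse libraries held 10441982 to 11180912 such reads. Of the NM-R libraries, ssNM-R 2, ssNM-R 3 and lsNM-R 1 held 7815326 to 8985705 reads and are called shallow, and ssNM-R 6, lsNM-R 4 and lsNM-R 5 held 16883689 to 18387599 and are called deep. Cell type markers also differed between the species. Summed B cell markers (8 of 9 listed) were 55893 to 56981 in the mice and 2678 to 7152 in NM-R. The sums were 30193 to 35805 against 5302 to 15755 for plasma cells (5 of 6), 9369 to 10399.8 against 1884 to 4412 for T cells (9 of 9) and 1658 to 2069.6 against 138 to 263 for NK cells (4 of 7). They were 5600.2 to 7134 against 805 to 1235 for dendritic cells (7 of 8), 8201 to 10629 against 26762 to 46068 for granulocytes (8 of 12) and 60448 to 73792 against 73365 to 108946 for macrophages (11 of 11). Summed erythroid markers (8 of 9) were 23608 to 66121 against 130565 to 203356. Single markers of a list did not all move alike. For 3 of 5 plasma cell markers every NM-R lay below every mouse, while Xbp1 and Prdm1 overlapped. In the mice the plasma cell sum was mostly Jchain (25608 to 30670). For 6 of 9 T cell markers every NM-R lay below every mouse, while Cd3e, Cd3g and Trat1 overlapped. Of 11 macrophage markers every NM-R lay above every mouse for 5, among them Siglec1, and below for 4, which were Marco (2521 to 3054 in the mice and 157 to 362 in NM-R), Adgre1 (2430 to 3014 against 25.9 to 120), Csf1r and Mertk. Of 8 granulocyte markers 5 lay above and Cxcr2 below (417 to 578 against 91.0 to 255). No listed marker was at 0 in any spleen, and the part of these cell types in the results was not tested. In bulk tissue, fewer cells of a type and less RNA per cell cannot be told apart.

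Most members that differed between the species were lower in NM-R. Against the mice, 37 of the 71 members were lower in NM-R and 16 were higher (limma on log2(normalized count + 1), adjusted p under 0.05 over all genes), which is 52.1% and 22.5%. Over all 12946 genes, 38.8% were lower and 39.7% higher by the same test. Fold changes are on that scale, so the added count of 1 shrinks those of genes with few reads. The median log2 fold change was -0.48 over the members and 0.01 over all genes. With the 3 members listed at 0 in a whole species set to the bound their reads allow, the members' median was -0.47. Every NM-R spleen lay below every mouse for 36 members (50.7%, against 36.2% of all genes) and above for 11 (15.5%, against 36.4%). Leaving out TRIM genes, 21 of 38 were lower and 5 higher. Without mouse 1, 37 members were lower and 12 higher.

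**Figure D1:**
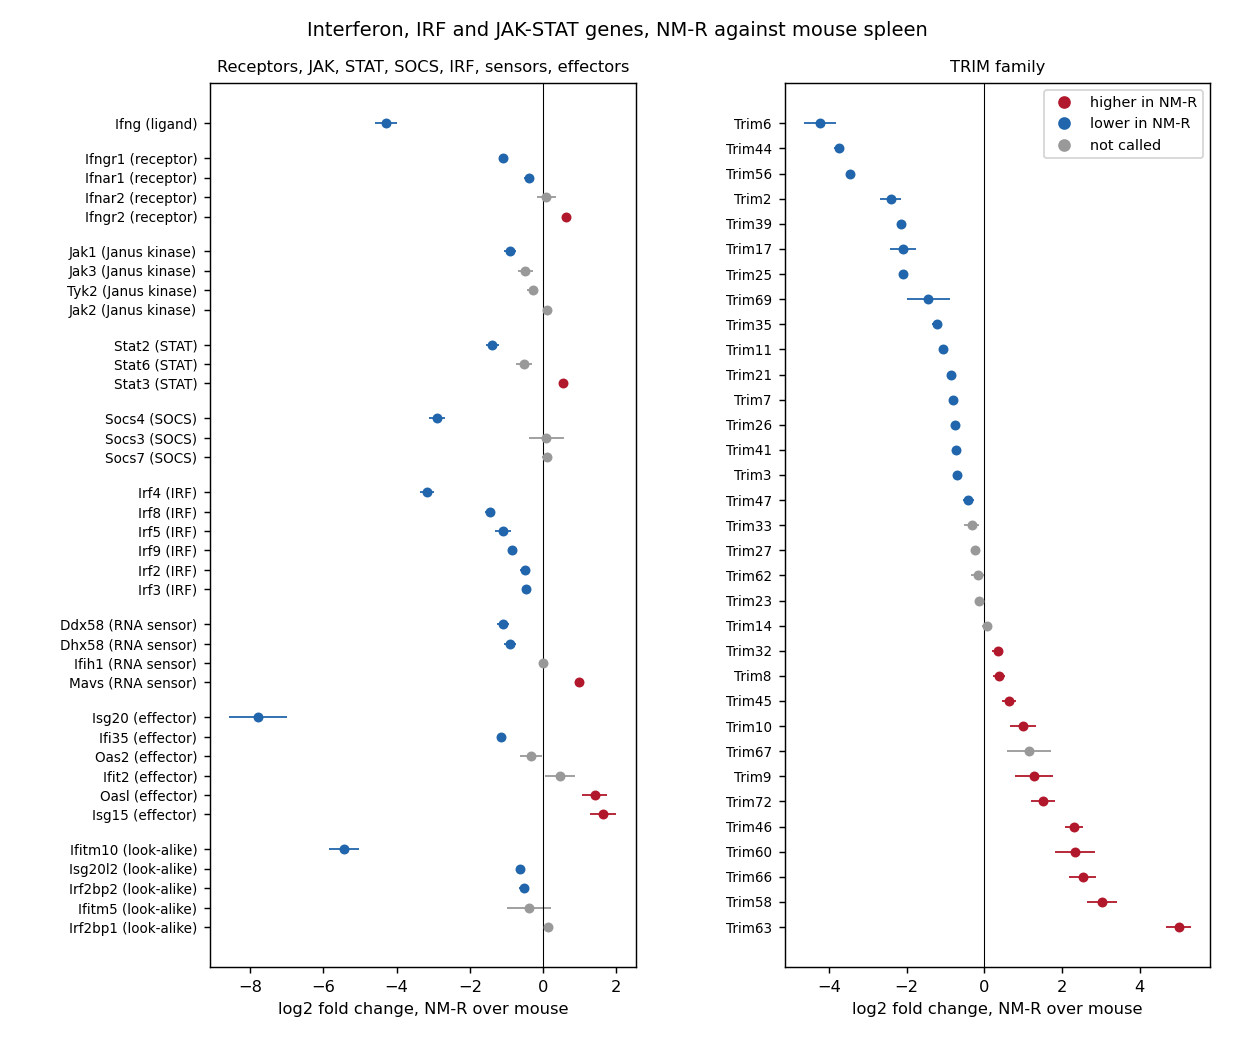
Log2 fold change of NM-R over mouse (horizontal axis, points, with bars for the standard error of the fit over 9 spleens) for 69 of the 71 members, ordered by role (left) and for the TRIM family (right). All 6 IRFs shown lie left of 0, and the RNA sensor, effector and TRIM genes lie on both sides. The folds of Ifng, Trim17 and Trim60, at 0 in every spleen of a species, depend on the added count of 1 and are no estimate of size.

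The only ligand among the members, Ifng (type II interferon, made mainly by T cells and NK cells), was detected in mice only. It had 19, 21 and 14 reads in the mouse libraries and 0 in each of the 6 NM-R libraries. Set against 3 reads per NM-R library, Ifng was at least 6.04-fold lower in NM-R. That limit covers counting error only, and a homologue missing from an annotation would also be listed at 0. The T cell and NK cell marker sums given above were also lower in NM-R, with no overlap, and their part in this result was not tested.

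The chains of the interferon receptors did not move together. Ifngr1, which binds type II interferon, was 3704, 3491 and 3459.6 in the mice, 1418, 1789.5 and 1320.1 in ssNM-R and 1905, 1619.7 and 2141 in lsNM-R. Every NM-R lay below every mouse, and Ifngr1 was 2.12-fold lower in NM-R (log2 fold change -1.08 ± 0.12, adjusted p = 1.47e-05). Ifngr2, the signalling chain of the same receptor, was 1064, 1096 and 1074 in the mice, 1299, 1944 and 1815 in ssNM-R and 1846, 1642 and 1601 in lsNM-R. Here every NM-R lay above every mouse (log2 fold change 0.64 ± 0.12, adjusted p = 0.000877). Ifnar1 of the type I receptor was 2043 to 2389 in the mice and 1465 to 2152 in NM-R. The ranges overlapped and the fall was small (log2 fold change -0.38 ± 0.14, adjusted p = 0.0298), and the call was lost without any 1 of 5 spleens (mouse 2, mouse 3, ssNM-R 3, lsNM-R 4 or lsNM-R 5), with adjusted p between 0.0576 and 0.106. It was also lost under upper quartile rescaling (-0.27, adjusted p = 0.0864), without the variance trend (adjusted p = 0.0529), with depth class as a term (-0.26, adjusted p = 0.145) and with the replicate block (-0.18, adjusted p = 0.224). Ifnar2 ranged from 1678 to 1713 in the mice and from 878 to 2613 in NM-R, where ssNM-R 6 was lowest, with a difference whose 95% interval was -0.51 to 0.70.

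Of the 4 Janus kinases, 1 fell. Jak1, which serves both interferon receptors, was 10902, 10583 and 9839 in the mice, 4183, 5276 and 6895 in ssNM-R and 6789, 4843 and 5777 in lsNM-R. It was 1.88-fold lower in NM-R with no overlap (log2 fold change -0.91 ± 0.16, adjusted p = 0.00045). Tyk2, the kinase of Ifnar1, was 2022 to 2279 in the mice and 1316 to 2004 in NM-R (log2 fold change -0.29 ± 0.14, adjusted p = 0.0835). Jak3, the kinase of the common gamma chain of lymphocyte cytokine receptors, was 1929 to 2046 in the mice, 1037 to 1470 in 5 NM-R and 2326 in lsNM-R 1 (log2 fold change -0.48 ± 0.21, adjusted p = 0.0525). Without lsNM-R 1, Jak3 was lower in NM-R (log2 fold change -0.63, adjusted p = 0.00284). That spleen also had the highest B cell (7152) and T cell (4412) marker sums of the NM-R, and their part in its Jak3 value was not tested. Jak2, which also serves the erythropoietin receptor, was 2564 to 2748 in the mice and 2356 to 3440.4 in NM-R, a log2 difference with a 95% interval of -0.09 to 0.30. Under upper quartile rescaling Jak2 was called higher in NM-R (0.21, adjusted p = 0.0391). It was also called higher in lsNM-R alone against the mice (0.25).

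Among the STATs, Stat2 fell and Stat3 rose. Stat2, of the type I interferon response, was 2297, 2096 and 2345 in the mice, 997, 1082 and 710.3 in ssNM-R and 1052, 767 and 647 in lsNM-R. It was 2.61-fold lower in NM-R (log2 fold change -1.38 ± 0.17, adjusted p = 3.32e-05), and all 6 NM-R lay below all 3 mice. Stat3, which answers interleukin 6 family cytokines, was 3465, 3394 and 3386 in the mice, 4781, 4732 and 5650.2 in ssNM-R and 4777, 5148 and 4756 in lsNM-R. It was 1.45-fold higher in NM-R (log2 fold change 0.54 ± 0.09, adjusted p = 0.000219) and higher in every NM-R than in every mouse. Stat6, which answers interleukin 4, was 3467 to 4037 in the mice and 1801 to 3457 in NM-R. The ranges did not overlap, yet NM-R values were spread widely and the test missed the threshold (log2 fold change -0.52 ± 0.22, adjusted p = 0.0523). It passed without ssNM-R 3, ssNM-R 6 or lsNM-R 5, with adjusted p of 0.016 to 0.0447. Stat6 was also called lower by DESeq2 (-0.47, adjusted p = 0.0478). The same held for limma with depth class as a term (-0.67, adjusted p = 0.037) and with the replicate block (-0.70, adjusted p = 0.0329).

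Among the SOCS genes, Socs4 was 1128, 1217 and 1119 in the mice, 197, 195 and 95.4 in ssNM-R and 157, 160.1 and 144 in lsNM-R. It was 7.46-fold lower in NM-R (log2 fold change -2.90 ± 0.21, adjusted p = 7.79e-07). Socs3, a feedback inhibitor of interleukin 6 family receptors, was 481 to 548 in the mice and 364 to 490.4 in 5 NM-R, while ssNM-R 6 stood at 2194. With that spleen the species did not separate (log2 fold change 0.09 ± 0.47, adjusted p = 0.875), and without ssNM-R 6 Socs3 was lower in NM-R (log2 fold change -0.33, adjusted p = 0.0243). Socs7 was 690.0 to 808 in the mice and 660.0 to 929 in NM-R, with a 95% interval of the log2 difference of -0.18 to 0.37.

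The 6 IRFs described here were all lower in NM-R, and for each of them every NM-R lay below every mouse. Of all genes, 38.8% were called lower, and for 36.2% every NM-R lay below every mouse. The IRFs were not tested as a set. Irf4, a factor of B cells and plasma cells, was 1998, 2027 and 1754 in the mice, 175, 315 and 203 in ssNM-R and 179, 265 and 176 in lsNM-R. It was 8.98-fold lower (log2 fold change -3.17 ± 0.20, adjusted p = 2.43e-07). Irf8, a factor of dendritic cells, monocytes and B cells, was 7173, 6391 and 6644 in the mice, 2442, 2782 and 2277 in ssNM-R and 3093, 2445 and 1904 in lsNM-R. The fall of Irf8 was 2.73-fold (log2 fold change -1.45 ± 0.14, adjusted p = 6.33e-06). The B cell, plasma cell and dendritic cell marker sums given above were lower in every NM-R than in every mouse as well, though the plasma cell markers Xbp1 and Prdm1 overlapped. The part of these cell types in the falls of Irf4 and Irf8 was not tested. Irf5, which acts downstream of Toll-like receptors, was 2271 to 2353 in the mice and 768 to 1504 in NM-R (log2 fold change -1.09 ± 0.21, adjusted p = 0.000823). Irf9, the DNA-binding partner of Stat2, was 1896, 2016 and 2297 in the mice, 1555, 1330.2 and 1148 in ssNM-R and 1078, 943 and 978 in lsNM-R (log2 fold change -0.84 ± 0.11, adjusted p = 5.61e-05). Smaller falls were measured for Irf3 (-0.47 ± 0.08), which induces type I interferon after RNA sensing, and Irf2 (-0.50 ± 0.13), a counterpart of Irf1. Irf1 and Irf7 were not listed in the table and were not analysed here.

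**Figure D2:**
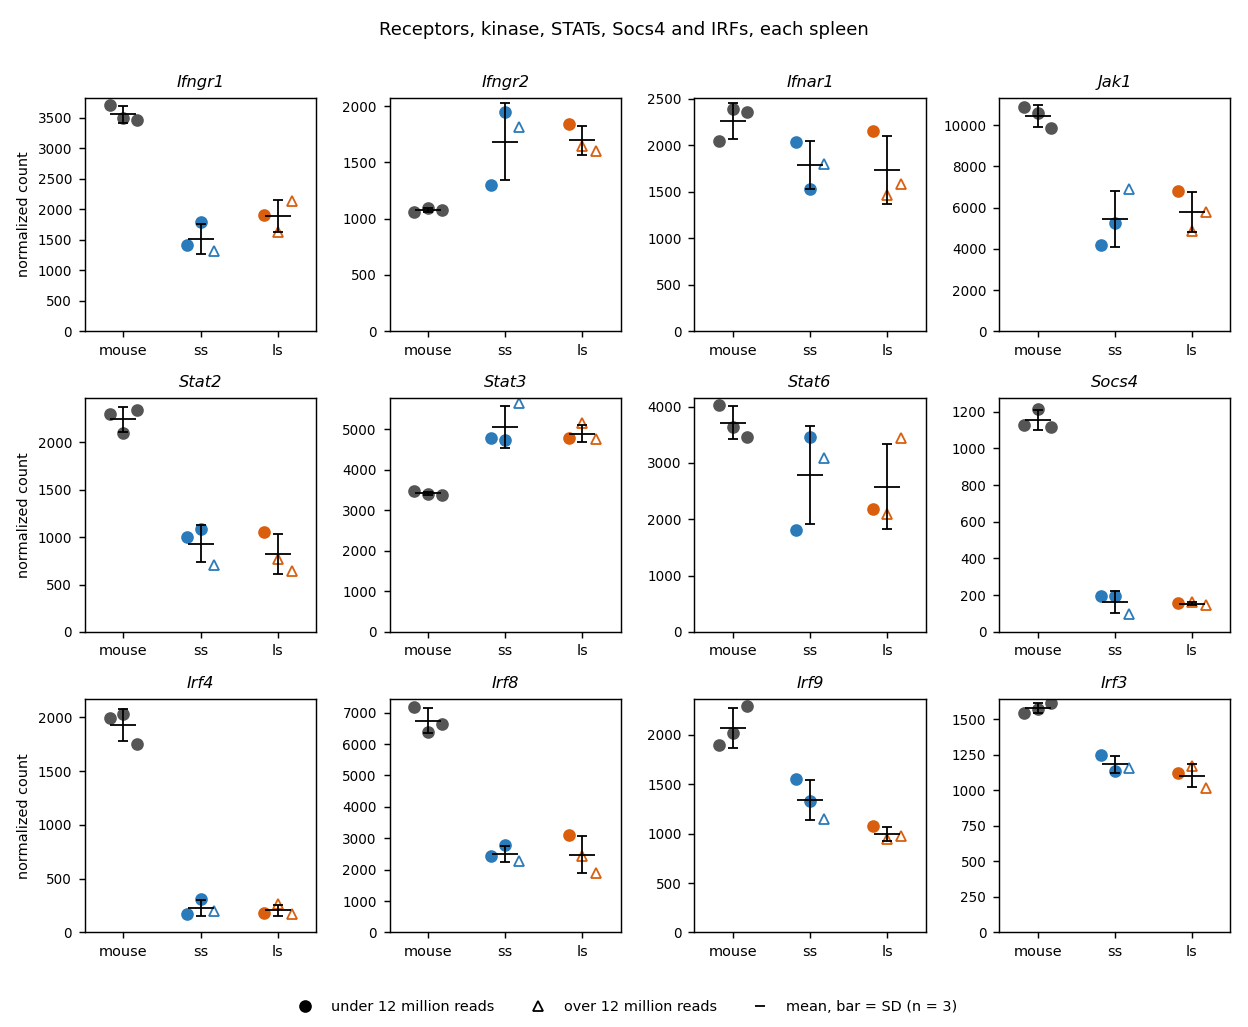
Normalized counts (vertical axis, from 0) of 12 members in each spleen of mice, ssNM-R and lsNM-R, with filled circles for libraries under 12000000 reads, open triangles for libraries over it, and bars for the mean ± SD of 3 spleens. Ifngr2 and Stat3 lie higher in all NM-R, Ifnar1 overlaps, and the other 9 genes lie lower in all NM-R, by a narrow margin for Stat6, which did not pass the test.

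The RNA sensors and their adaptor differed in direction. Ddx58 (RIG-I) was 2008, 1965 and 1962 in the mice, 1072, 1204 and 655 in ssNM-R and 884, 912 and 917 in lsNM-R. It was 2.14-fold lower in NM-R with no overlap (log2 fold change -1.10 ± 0.16, adjusted p = 0.000139). Dhx58 (LGP2), which modulates both other sensors, was 615, 668 and 694 in the mice, 466, 477 and 362 in ssNM-R and 369, 228 and 277 in lsNM-R and fell likewise (log2 fold change -0.91 ± 0.16, adjusted p = 0.000382). Ifih1 (MDA5) was 797, 805 and 794 in the mice, 945, 883 and 674 in ssNM-R and 809, 751 and 760.0 in lsNM-R, so that the mice lay inside the NM-R range. Its log2 difference was 0.00 with a 95% interval of -0.24 to 0.24. Mavs, the mitochondrial adaptor on which RIG-I and MDA5 signal, was 950.2, 1015 and 1009.9 in the mice, 2047, 2208 and 1852 in ssNM-R and 2253, 1807 and 1659.9 in lsNM-R. Each NM-R lay above each mouse, and Mavs was 1.98-fold higher (log2 fold change 0.98 ± 0.11, adjusted p = 1.37e-05).

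The promoters of the members were searched in the mouse genome, since 69 members had a single coding gene in Gencode vM1 for mm9, the build the authors used for mouse. The windows ran from 250 bases before to 50 bases after each gene's annotated start, which is 300 bases, and both strands were read. The core of the interferon-stimulated response element that Stat2 and Irf9 bind as part of their complex, searched as GAAA, any 2 bases and GAAA, was present in 9 of 69 windows (13%) and in 2.94% of the windows of 10308 genes in the table. TTCNNNGAA, the core to which STAT dimers bind, was present in 11 of 69 (15.9%) and in 6.66% of all. Outside the TRIM family the first core was present in 6 of 36 windows (16.7%) and the second in 9 of 36 (25.0%). Among TRIM genes the first was present in 3 of 33 (9.09%) and the second in 2 of 33 (6.06%), the latter near the share of all genes. Overlapping matches on a strand were counted as 1 window. The letters alone do not show that a factor binds, and NM-R promoters were not analysed here.

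The upstream stretches of 3 members are shown because they hold the first motif wholly before the start and are described below for their values in the NM-R cohorts. They are given 5′ to 3′ on the strand of the gene, with the bases of every match to that core, on either strand, in capitals. In mm9, Isg15 is on the minus strand at chr4:155574944-155575045, Oas2 on the minus strand at chr5:121199884-121199973 and Trim26 on the plus strand at chr17:36973891-36973986, all outside the transcribed gene.
Isg15: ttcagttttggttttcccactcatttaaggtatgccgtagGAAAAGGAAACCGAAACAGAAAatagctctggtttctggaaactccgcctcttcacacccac
Oas2: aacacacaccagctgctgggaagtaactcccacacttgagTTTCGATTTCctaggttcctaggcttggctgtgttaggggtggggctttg
Trim26: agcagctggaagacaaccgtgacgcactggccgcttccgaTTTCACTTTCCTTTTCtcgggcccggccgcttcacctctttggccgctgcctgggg
Isg15 had 3 overlapping matches and the first began 78 bases before the start. Oas2 had 1 match, beginning 71 bases before it, and Trim26 had 2 overlapping matches from 148 bases before it. None of the 3 windows held TTCNNNGAA. Dhx58, also described below, had a match that began 4 bases before the start and ran across it, and is not shown. Irf9 and Ifi35, described below as well, had no match to the first motif. Ddx58, Ifih1, Irf2 and Trim14 had a match, with an unadjusted limma p of 0.24 to 0.74 between the cohorts. Trim21 had a match too, with an unadjusted limma p of 0.032. A link between the motif and the cohort values was not tested.

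The interferon-stimulated effectors among the members did not share a direction between the species. Of 6, 2 rose, 2 fell and 2 did not pass the test. That is 33.3% higher and 33.3% lower, beside 39.7% and 38.8% of all genes, and nothing particular to effectors is read from it. No Mx gene and no Bst2 was listed, and of the Ifit genes only Ifit2, so these 6 do not stand for all effectors. Isg15, a ubiquitin-like protein joined to other proteins, was 305, 716 and 1048 in the mice, 2758, 3400.4 and 2863 in ssNM-R and 1911, 831 and 1115 in lsNM-R. Mouse 3 lay above lsNM-R 4, and Isg15 was 3.11-fold higher in NM-R (log2 fold change 1.64 ± 0.36, adjusted p = 0.002). Oasl, an oligoadenylate synthetase-like protein, was 221, 287 and 417 in the mice, 1248, 1315 and 690.1 in ssNM-R and 1029.6, 379 and 555 in lsNM-R. It too was higher in NM-R (log2 fold change 1.41 ± 0.33, adjusted p = 0.00291), with mouse 3 above lsNM-R 4. Both genes were lowest in mouse 1 among the mice.

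Isg20, an exonuclease acting on RNA, was 1247, 2055 and 2634 in the mice, 24.6, 63.1 and 2.53 in ssNM-R and 1.41, 7.05 and 2.51 in lsNM-R. It was 221-fold lower in NM-R (log2 fold change -7.79 ± 0.78, adjusted p = 7.63e-06), the largest fall among the members on this scale, and 4 of the NM-R libraries held under 10 normalized counts. Ifi35 was 699, 816 and 902 in the mice, 431, 431 and 363 in ssNM-R and 339, 300.4 and 305 in lsNM-R and was 2.24-fold lower, with no overlap (log2 fold change -1.16 ± 0.11, adjusted p = 5.03e-06). Oas2, which makes the activator of RNase L, was 559.9, 607 and 611 in the mice, 831, 1120.0 and 373 in ssNM-R and 412, 277 and 277 in lsNM-R. The mice lay inside the NM-R range (log2 fold change -0.33 ± 0.29, adjusted p = 0.326). Ifit2, which binds RNA, was 542, 541 and 557 in the mice, 1197, 1252 and 461 in ssNM-R and 1321, 334 and 604 in lsNM-R. The 3 mice lay close together while the NM-R spread to both sides of them (log2 fold change 0.46 ± 0.42, adjusted p = 0.328).

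**Figure D3:**
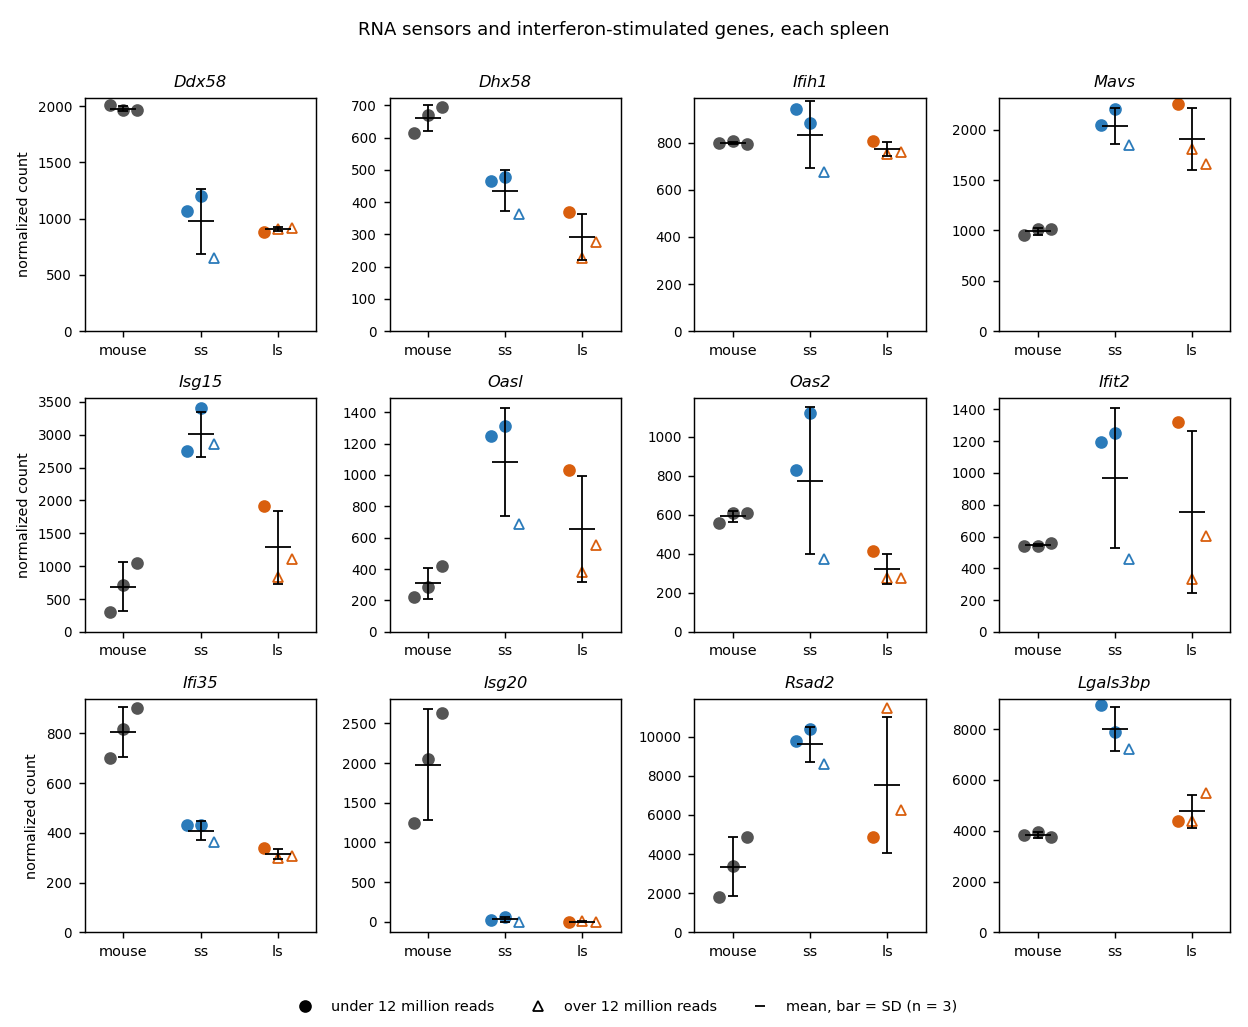
Normalized counts (vertical axis, from 0 or just below) of RNA sensors, effectors, Rsad2 and Lgals3bp in each spleen, with filled circles for libraries under 12000000 reads, open triangles for those over it, and bars for the mean ± SD of 3 spleens. Mavs is higher and Ddx58, Dhx58, Ifi35 and Isg20 are lower in all NM-R, and the deep NM-R libraries lie below the shallow ones for Ifit2, Oasl and Oas2.

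The 5 genes that share only a name with these families were not higher in NM-R. Ifitm10 was 163, 111 and 129 in the mice and 0.63 to 5.47 in NM-R (log2 fold change -5.44 ± 0.41, adjusted p = 9.85e-07). Isg20l2, a nucleolar exonuclease, was 867 to 994 in the mice and 542 to 708 in NM-R (log2 fold change -0.63 ± 0.10, adjusted p = 0.000252). Irf2bp2, a co-repressor that binds Irf2, was 1540.3 to 1643 against 915 to 1321, also lower (log2 fold change -0.53 ± 0.12, adjusted p = 0.00292). Irf2bp1 (0.13 ± 0.11) and Ifitm5 (-0.37 ± 0.60) did not pass. The Irf2bp genes lay outside the rule for named genes and are given to account for all members.

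The TRIM family was split. Of 33 TRIM genes, 16 were lower in NM-R and 11 higher, and 6 did not pass. That is 48.5% and 33.3%, beside 38.8% and 39.7% of all genes, and nothing particular to the family is read from it. Trim44 was 2647, 2252 and 2172 in the mice, 179, 183 and 146 in ssNM-R and 199, 154 and 187 in lsNM-R. It was 13.4-fold lower in NM-R (log2 fold change -3.75 ± 0.12, adjusted p = 4.92e-09). Trim56, a ubiquitin ligase linked to antiviral signalling, was 3083 to 3200.1 in the mice and 221 to 334 in NM-R, 10.9-fold lower (log2 fold change -3.45 ± 0.12, adjusted p = 6.93e-09). Trim2 was 283 to 316 against 29.1 to 79.3 (-2.42 ± 0.27), and Trim39 was 1126 to 1153 against 233 to 281 (-2.14 ± 0.10). Trim25, which ubiquitinates RIG-I, was singled out after its values were seen. It was 2931 to 3220.5 in the mice and 592 to 857 in NM-R, 4.24-fold lower (log2 fold change -2.09 ± 0.11, adjusted p = 6.96e-08).

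At the other end, Trim58, a ubiquitin ligase of maturing red cells, was 99.3 to 382 in the mice and 1405 to 2777 in NM-R. It was 8.18-fold higher in NM-R (log2 fold change 3.03 ± 0.38, adjusted p = 4.09e-05). Trim10, also known from red cell maturation, was 897, 2249 and 3267 in the mice, 4600.2, 3288 and 3491 in ssNM-R and 3559, 4609.5 and 3049 in lsNM-R. Its rise was smaller (log2 fold change 0.99 ± 0.34, adjusted p = 0.0222), mouse 3 lay above lsNM-R 5, and without mouse 1 the difference was 0.46 with an adjusted p of 0.0759. Both genes were lowest in mouse 1 and highest in mouse 3 among the mice. The summed erythroid markers were 23608, 52786 and 66121 in mouse 1, 2 and 3, and their part in these results was not tested. Trim46, a microtubule-binding protein known from neurons, was 28.1 to 52.4 in the mice and 149 to 271 in NM-R (log2 fold change 2.30 ± 0.24, adjusted p = 9.26e-06). Trim72, a membrane repair protein of muscle, was 9.78 to 19.1 against 26.8 to 68.9 (1.52 ± 0.31). Trim63, a ubiquitin ligase of muscle singled out after its values were seen, was 5.24 to 16.1 in the mice and 239 to 451 in NM-R, 31.9-fold higher (adjusted p = 2.93e-07). Low reads limited 5 TRIM genes. Trim6 had 45, 33 and 37 reads in the mice and at most 3 in each NM-R, Trim17 had 2 to 5 in the mice and 0 in NM-R, and Trim60 had 0 in the mice and 2 to 9 in NM-R. Trim67 had at most 4 reads and Trim69 at most 6 in any library.

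**Figure D4:**
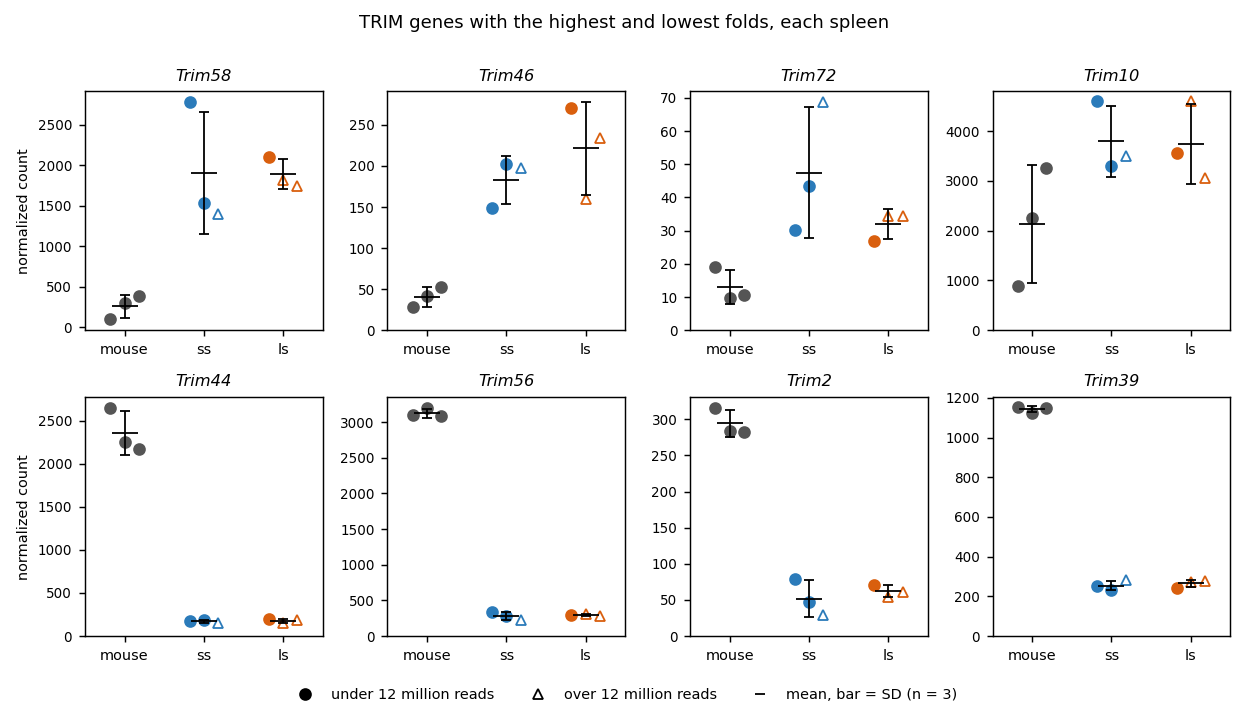
Normalized counts (vertical axis, from 0 or just below) of the 4 TRIM genes with the highest and the 4 with the lowest log2 fold change among those called with a mean of at least 10 in both species, in each spleen, with bars for the mean ± SD of 3 spleens. For 7 of the 8 genes the species do not overlap, while mouse 3 reaches into the NM-R range for Trim10.

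The other pathway genes came from a list of 60, of which 39 were in the table. Of these 39, 26 were lower in NM-R and 6 higher, which is 66.7% and 15.4% beside 38.8% and 39.7% of all genes. Among the lower, Samhd1, which depletes the nucleotides that viruses need, was 10302, 9948 and 11255 in the mice, 502, 476 and 291 in ssNM-R and 509.9, 498 and 518 in lsNM-R (log2 fold change -4.52 ± 0.16, adjusted p = 6.32e-09). Nlrc5, the activator of MHC class I genes, was 2988 to 3546 in the mice and 114 to 263 in NM-R (log2 fold change -4.15 ± 0.24, adjusted p = 1.70e-07). Cxcl9, a chemokine induced by type II interferon, was 677 to 1233 against 31.0 to 52.5 (-4.39 ± 0.25), and Shisa5 was 15997 to 16653 against 932 to 1362 (-3.93 ± 0.11).

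Higher in NM-R were Cmpk2 and Rsad2, neighbouring interferon-stimulated genes. Cmpk2, a mitochondrial nucleotide kinase, was 458, 659 and 862 in the mice, 4093, 3397 and 2992 in ssNM-R and 2706, 2895 and 2463 in lsNM-R (log2 fold change 2.25 ± 0.18, adjusted p = 1.46e-06). Rsad2 (viperin), an antiviral enzyme, was 1826, 3401 and 4859 in the mice, 9797, 10380.0 and 8625 in ssNM-R and 4889.7, 11446 and 6249 in lsNM-R, with mouse 3 just below the lowest NM-R (log2 fold change 1.40 ± 0.32, adjusted p = 0.00239). Cgas, the DNA sensor, was 105 to 149.5 against 391 to 587 (1.88 ± 0.13), and Lgals3bp was 3734 to 3949 against 4389.7 to 8925 (0.68 ± 0.11). A gene at 0 in every spleen of a species was seen for 2 genes of this list. Xaf1 had 636, 985 and 1198 reads in the mice and 0 in all NM-R, at least 317-fold lower. Trex1 had 0 in the mice and 42 to 87 reads in NM-R, at least 18.9-fold higher. Both were singled out after their values were seen, and a homologue missing from an annotation would also be listed at 0.

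Each NM-R cohort was also set against the same 3 mice, so these results share their control spleens. In ssNM-R, 35 members were lower and 13 higher (37.5% and 38.0% of all genes). In lsNM-R, 39 were lower and 13 higher (37.0% and 38.1% of all genes). By these calls, 34 members were lower and 11 higher in both cohorts. In lsNM-R only, 5 were lower and 2 higher, the latter being Jak2 and Trim45. In ssNM-R only, 1 was lower and 2 were higher. Of the members called in a single cohort, the effectors Isg15 and Oas2 are described here. Isg15 was higher than in mice in ssNM-R (log2 fold change 2.29), and in lsNM-R it was 0.98 above with an adjusted p of 0.0548. Under 7 of the alternatives Isg15 was called higher in lsNM-R too: upper quartile, quantile, DESeq2, depth class (1.34, adjusted p = 0.0367), the replicate block, and without mouse 3 or lsNM-R 4, with adjusted p of 0.00054 to 0.0413. Oas2 was lower than in mice in lsNM-R (-0.90, adjusted p = 0.0342), and in ssNM-R the difference was 0.25 (adjusted p = 0.521). The Oas2 call in lsNM-R was lost under 9 alternatives (adjusted p of 0.0518 to 0.31): quantile normalization, no variance trend, the replicate block, depth class, and without mouse 1, mouse 2, mouse 3, lsNM-R 4 or lsNM-R 5. With depth class the Oas2 difference was -0.26 in lsNM-R, and in ssNM-R it was 0.57 and called (adjusted p = 0.0203). The ssNM-R difference was also called as higher with the replicate block (0.66, adjusted p = 0.0114) and without ssNM-R 6 (0.70, adjusted p = 0.00958). Whether the cohorts differ is asked by their direct comparison, which follows.

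Between the cohorts no member passed. Of the 71 members 0 were called by limma (smallest adjusted p = 0.442) and 0 by edgeR's quasi-likelihood test, as were 0% of all genes by limma. DESeq2 on the recovered reads called 1 member, Oas2, lower in lsNM-R (adjusted p = 0.0368), against 0.15% of all genes called lower. At an unadjusted limma p under 0.05, 9 members were lower in lsNM-R and 2 higher, where 3.55% and 5.24% of all genes were. All 6 effectors had a negative difference, of which 4 had an unadjusted p under 0.05. A negative difference was also seen for 42 of the 71 members, and the median over all genes was 0.005. Isg20, 1 of the 4, was only 1.41 to 7.05 normalized counts in lsNM-R. The effectors were measured in the same spleens and were not tested as a set, so nothing particular to them is read from it.

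The 6 members with the smallest p were all lower in lsNM-R. Of the marker sums, that of the granulocytes also parted the cohorts, at 26762 to 35081 in ssNM-R and 36377 to 46068 in lsNM-R, and the 7 others overlapped. The granulocyte list was split. Ltf, Mmp8, Csf3r and Cxcr2 lay higher in every lsNM-R, while S100a9 and Padi4 overlapped. Mpo (3460 to 5107 in ssNM-R, 2888 to 3962 in lsNM-R) and Mmp9 (1902 to 2683, 850 to 2111) overlapped with lower values in lsNM-R. The part of cell types in the cohort differences was not tested. Isg15 was 2758, 3400.4 and 2863 in ssNM-R and 1911, 831 and 1115 in lsNM-R, with no overlap (log2 fold change -1.31 ± 0.42, adjusted p = 0.459). Oas2 was 831, 1120.0 and 373 against 412, 277 and 277, and ssNM-R 6 lay below lsNM-R 1 (log2 fold change -1.15 ± 0.34, adjusted p = 0.442). Dhx58 was 466, 477 and 362 against 369, 228 and 277, with ssNM-R 6 again below lsNM-R 1 (log2 fold change -0.60 ± 0.18, adjusted p = 0.442). Irf9 was 1555, 1330.2 and 1148 against 1078, 943 and 978 (log2 fold change -0.42 ± 0.13, adjusted p = 0.443), the 2 groups being apart. Trim26, a ubiquitin ligase, was 1403, 1476 and 1637 against 1249, 1038 and 1168 (log2 fold change -0.39 ± 0.10, adjusted p = 0.442). Ifi35 was 431, 431 and 363 against 339, 300.4 and 305 (log2 fold change -0.37 ± 0.13, adjusted p = 0.488).

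Every lsNM-R lay below every ssNM-R for 5 members (7.04%, against 6.23% of all genes), which were Ifi35, Irf9, Isg15, Trim21 and Trim26. Every lsNM-R lay above every ssNM-R for Jak2 alone (1.41%, against 6.84%). Trim21, an antibody receptor of the cytosol that was named after its values were seen, was 476, 479 and 383 against 364, 371 and 359. Jak2 was 2817, 2356 and 2548 against 3007, 3440.4 and 3006 (log2 fold change 0.29 ± 0.10, adjusted p = 0.488). In contrast, Ddx58 (-0.06 ± 0.19) had a 95% interval on both sides of 0, of -0.49 to 0.36. Of the other pathway genes, Lgals3bp, a secreted glycoprotein, had the largest contrast for its spread, at 8925, 7899.8 and 7211 in ssNM-R and 4389.7, 4401 and 5496 in lsNM-R (log2 fold change -0.75 ± 0.12, adjusted p = 0.429).

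Several interferon-stimulated genes also followed the depth of the NM-R libraries, which was unevenly spread over the cohorts, with 1 deep library in ssNM-R and 2 in lsNM-R. Ifit2 was 1197, 1252 and 1321 in the shallow libraries and 461, 334 and 604 in the deep ones. Every deep library lay below every shallow one for 15 members (21.1%, against 8.10% of all genes), and above for 3 (against 6.67%). Among those below were Ifit2, Oasl, Oas2, Stat2, Irf5, Ifih1, Dhx58, Mavs and Tyk2, and also TRIM genes such as Trim7 and Trim14. Other interferon-stimulated genes did not part by depth. Isg15, Isg20, Ifi35, Cmpk2 and Rsad2 overlapped, and Rsad2 had a positive difference of deep from shallow libraries (0.28 ± 0.40). With the cohort as a term, the deep libraries were lower by 1.48 ± 0.20 on the log2 scale for Ifit2 (adjusted p = 0.0962) and by 0.56 ± 0.10 for Stat2 (adjusted p = 0.141). No gene in the table passed this test (smallest adjusted p = 0.051), and at an unadjusted p under 0.05 it had 15 members lower and 2 higher in deep libraries, against 8.44% and 6.47% of all genes. What else differed between these libraries is not stated in the labels.

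With depth class in the fit, the cohort differences of the 6 members kept their sign. The difference of lsNM-R from ssNM-R was -1.13 for Isg15, -0.83 for Oas2, -0.44 for Dhx58, -0.34 for Irf9, -0.39 for Trim26 and -0.30 for Ifi35, with adjusted p of 0.191 to 0.337. Among shallow libraries, Isg15 was 2758 and 3400.4 in ssNM-R and 1911 in lsNM-R, and among deep libraries it was 2863 in ssNM-R and 831 and 1115 in lsNM-R. Within either depth class Isg15 was thus lower in lsNM-R, with 1 library in an arm and no test. Since the cohorts did not overlap for Isg15, any split of the spleens gives this order, and nothing is read from it. Against the mice, whose libraries were all under 12000000 reads, Ifit2 passed as higher in NM-R once depth class was in the fit (log2 fold change 1.20, adjusted p = 0.000367). As no mouse library was deep, that fit sets NM-R at the shallow class against the mice. The deep NM-R libraries, at 334 to 604, lay on both sides of the mice, so no rise in NM-R in general is read from it.

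**Figure D5:**
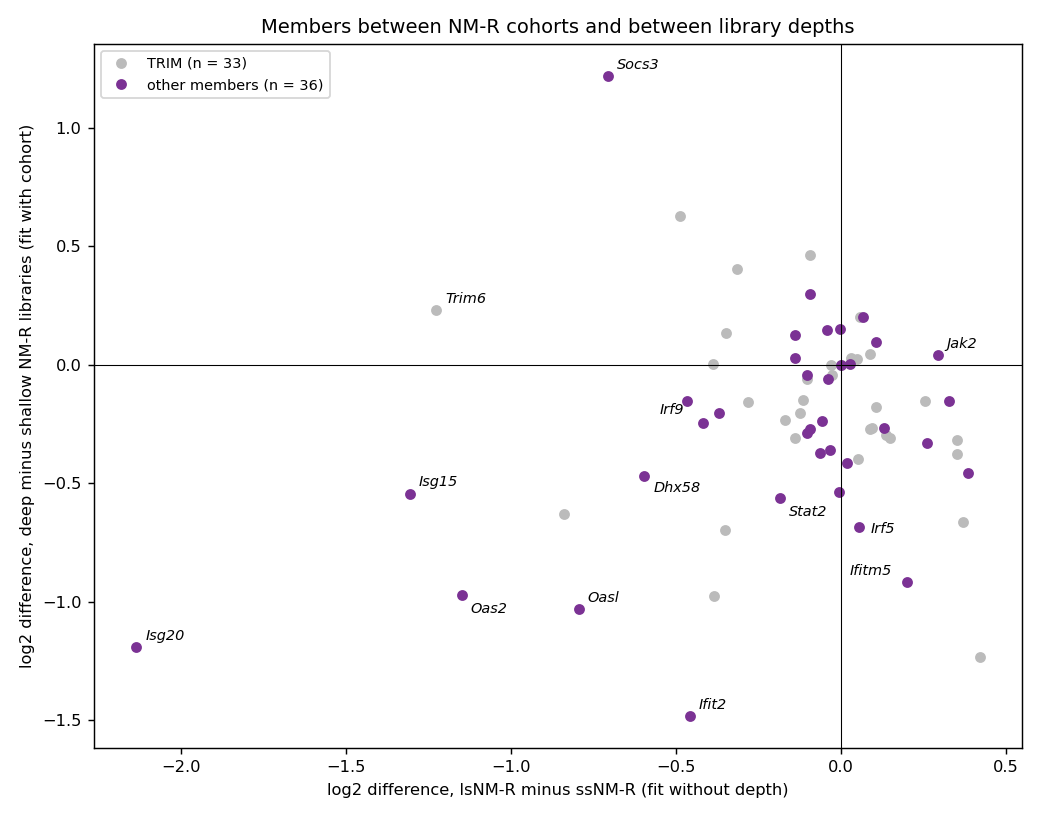
For 69 of the 71 members, the log2 difference of lsNM-R from ssNM-R (horizontal axis, fit without depth) and of deep from shallow NM-R libraries (vertical axis, fit with cohort as a term), with TRIM genes in grey and the others in purple. Isg15, Oas2, Oasl, Dhx58 and Isg20 lie low on both axes, Ifit2 is lowest on the depth axis, and no difference passed an adjusted p of 0.05 on either axis.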

How the data were processed

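RNA of 9 spleens (3 mouse, 3 ssNM-R, 3 lsNM-R) was analysed. The authors aligned reads to mm9 or hetGla2 with STAR 2.5.3a, counted them with HTSeq 0.10.0 and gave NM-R genes the names of mouse homologues. Whether counting used strand is not given in the sources used here, and labels and methods differ on kit and sequencer. They deposited a signal per gene, the reads divided by a DESeq2 size factor, in 1 table for both species. All values were whole multiples of 1 step per library within 0.001, so the reads of the listed genes were recovered in full. The 3 spleens of a group are separate animals.

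The main test was limma 3.58.1 on log2(normalized count + 1), with 1 mean per group over 9 spleens and a trended variance, 2-sided, with Benjamini-Hochberg adjustment over all genes. A planned count test was not the main one, since the table holds normalized values. edgeR 4.0.16 and DESeq2 1.42.0 on recovered reads were alternatives, as were other added counts, filters, scalings, depth class and leaving out each spleen. With depth class in the fit, every comparison with the mice is taken at the shallow class, since no mouse library was deep. The fit was tested on simulated data. Members, gene lists, markers and tests were chosen with earlier results of these data known. Named were all members outside the TRIM family with a family role, of TRIM and of other pathway genes the 4 highest and 4 lowest called with a mean of at least 10 in both species, and the 6 members with the smallest p between cohorts. The values of 2 members that this rule names are not reported here, though counts over members include them. Limits from a count of 0 used 3 reads per library. Replicate numbers shared by mice and NM-R were checked by the correlation of deviations from the group means, which was 0.010, -0.0045 and 0.00076 for the 3 pairs, so they do not pair the spleens.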

Additional observations from a re-analysis of the deposited data

Results flagged for a closer look

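In 4 of the named genes, 1 NM-R spleen stood apart from the other 5 by Dixon's test at the 95% level. Chance alone flags about 1 in 20 sets of values, and 53 genes were looked at. Socs3 was 2194 in ssNM-R 6 and 364 to 490.4 in the others. Jak3 was 2326 in lsNM-R 1 and 1037 to 1470 in the others. The summed B cell markers were 7152 in that spleen and 2678 to 5119 in the other NM-R, and the T cell markers 4412 and 1884 to 3268. Samhd1 was 291 in ssNM-R 6, the lowest, and 476 to 518 in the others. Ifitm5 was 25.4 in lsNM-R 1 and 2.51 to 8.85 in the others.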

How the results depend on the processing

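The counts of members and of all genes called against the mice stayed within 1.5 times of the values reported under all 22 alternatives that could be fitted, and leaving out each spleen in turn gave 12 to 16 members higher and 34 to 38 lower in NM-R. Between the cohorts, DESeq2 called 41 genes higher and 16 lower in lsNM-R, of which 1 was a member, where limma called 0, also with any spleen left out. The cause was not tested. Upper quartile rescaling moved the all-gene median of NM-R over mouse from 0.01 to 0.11 on the log2 scale, a shift of 0.10, and that of the members to -0.38, with 17 members higher and 35 lower. No sign of a named gene turned under that, TMM or quantile scaling. Of 1243 values of named genes under an alternative, 1206 kept sign and side of the threshold, 11 lost and 12 gained a call and 14 turned sign. The sign turned for Ifih1 (main 0.00) without mouse 1 (-0.0017), mouse 3 (-0.0043), ssNM-R 2 (-0.049), ssNM-R 3 (-0.024) or lsNM-R 1 (-0.016), with up to 0.073 without ssNM-R 6, for Ifnar2 without ssNM-R 3 (-0.062, and up to 0.30 without ssNM-R 6) and for Socs3 without ssNM-R 6 (-0.33, and up to 0.29 without ssNM-R 3). With depth class as a term it turned for Ifitm5 (0.085), Oas2 (0.16) and Socs3 (-0.52). With the replicate number as a block, 16 members were higher and 37 lower in NM-R, 14 and 37 in ssNM-R and 12 and 30 in lsNM-R. The block turned Ifitm5 (0.32), Oas2 (0.11), Socs3 (-0.34) and, between the cohorts, Isg15 (0.82, adjusted p = 0.58). Since the numbers do not pair the spleens, these blocked values carry no weight of a paired design. Without the block Isg15 was lower in lsNM-R with any spleen left out (-1.64 to -1.04), a sign set in advance by cohorts that do not overlap. With 3 spleens a group and 7815326 to 18387599 reads each, genes such as Trim17, Trim60, Trim67 and Trim69, with at most 9 reads in any library, allow no size of change.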

Other observations

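A few more genes from the list of other pathway genes are given as values. They were picked after their low values in NM-R were seen, so nothing is read from their shared direction. Psmb8, a catalytic subunit of the immunoproteasome, was 3426 to 3674 normalized counts in the mice and 242 to 353 in NM-R (log2 fold change -3.69 ± 0.11, adjusted p = 3.06e-09). Psmb10, another such subunit, was 1209 to 1414 against 86.0 to 124 (-3.55 ± 0.11). Tap1, which carries peptides into the endoplasmic reticulum, was 4347 to 4954 against 744 to 1189 (-2.15 ± 0.12), and Tapbp, which loads them, was 4383 to 5061 against 502 to 728 (-2.86 ± 0.10). Psme1, a subunit of the proteasome activator, was less far apart, at 3035 to 3672 against 1188 to 1459 (-1.30 ± 0.10). Ciita, the activator of MHC class II genes and a gene of B cells and dendritic cells, was 4269 to 5058 against 449.9 to 1338 (-2.72 ± 0.26).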
